A study of Mus musculus with 6 samples.

Results

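The AP-1 and BATF transcription factors described here were 10 genes, listed by symbol with earlier results of these data known, among 56941 genes in a count table of activated mouse CD8⁺ T cells. They were the FOS genes *Fos*, *Fosb*, *Fosl1* and *Fosl2*, the JUN genes *Jun*, *Junb* and *Jund*, the BATF genes *Batf* and *Batf3*, and *Maf*. All 10 were in the table, 9 passed the filter on low counts and stood among the 13299 genes tested, and *Fosl1* did not.

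RNA was sequenced from 3 Vehicle and 3 S1P samples, which the labels call biological replicates, without saying how many animals or separate cultures they came from. The cells came from the spleen of B6 mice and are labelled as purified naive CD8⁺ T cells. The study's culture methods instead name either purified naive T cells, without mention of CD8, or total splenocytes as the starting material. Every sample received plate-bound antibodies to CD3 and CD28 with recombinant IL-2 at 100 U/ml and was cultured for 3 days, and at 24 h either vehicle or sphingosine-1-phosphate (S1P, a lipid that acts on S1PR1 and related receptors) was added. The S1P concentration was 5 µM, so the comparison asks what this addition changed in cells that had already been activated for 24 h.

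AP-1 is a pair of basic leucine zipper (bZIP) proteins bound side by side through their zippers. JUN proteins pair with one another or with FOS proteins, FOS proteins need a JUN partner, and BATF proteins also pair with JUN proteins and bind composite sites together with IRF4. In T cells AP-1 is switched on by the T cell receptor and CD28, acts with NFAT at cytokine genes, and takes part in both effector and exhaustion programmes, and c-MAF is a bZIP factor of a neighbouring family known for driving IL-10 and other cytokine genes.

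The libraries held 13636095 to 17089831 counts in the Vehicle group and 12048880 to 17384084 counts in the S1P group. S1P replicate 2 stood apart in that 7.80% of its counts were mitochondrial, against 4.10% to 4.93% in the other 5 libraries, so values without it are given for the members that changed. T cell markers were present in every sample. A sum over 6 genes was 1091 to 1250 CPM (counts relative to the library size, scaled with TMM factors) in Vehicle and 947 to 1052 CPM in S1P samples. Of these, only *Cd8a* and *Cd8b1* are particular to CD8 T cells, since CD4 T cells also express *Cd3d*, *Cd3e*, *Cd3g* and *Trac*. *Cd8a* and *Cd8b1* were lower after S1P (log2 fold changes of -0.67 and -0.55). Their means were 222 and 117 CPM in Vehicle and 139 and 79.7 CPM in S1P samples, beside 203 and 218 CPM for *Cd4*. Markers of other cells were also present, since 7 B cell genes summed to 1072 to 1306 CPM in Vehicle and 1120 to 1216 CPM in S1P samples, and 4 CD4 T cell genes to 229 to 272 CPM and 252 to 319 CPM. Although these sums overlapped, 2 of the 7 B cell genes were called lower after S1P (*Ms4a1* at -0.39 and *Cd22* at -0.44), with *Ighm* at 0.01 and *Pax5* at 0.33 not called, and 2 of the 4 CD4 T cell genes higher (*Zbtb7b* at 0.37 and *Cd40lg* at 0.50). Sums over 7 myeloid genes (3.67 to 4.63 and 2.98 to 6.23 CPM) and 4 NK cell genes (2.71 to 3.41 and 1.96 to 3.51 CPM) were low. Those over 6 dendritic cell genes (4.11 to 6 and 7.11 to 7.54 CPM, with *Clec9a* at 0 counts in every library) and over 4 stromal genes (69.7 to 74.6 and 81.1 to 85.8 CPM, nearly all of it the endothelial gene *Pecam1*) were higher in every S1P sample than in every Vehicle sample. In such bulk samples fewer cells of a type and less RNA per cell cannot be told apart, and the part of these other cells in the results on AP-1 genes was not tested.

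S1P-treated cells contained more transcript of 3 of the 9 tested AP-1 and BATF genes. *Fosl2* rose 2.67-fold, *Jun* 2.41-fold and *Junb* 1.73-fold, whereas *Jund*, *Fos*, *Fosb*, *Batf*, *Batf3* and *Maf* did not pass the test and none of the 9 was called lower. Calls needed both an adjusted p no higher than 0.05 (edgeR's quasi-likelihood test, Benjamini-Hochberg adjustment over all 13299 genes) and a log2 fold change at or beyond 0.3 in either direction, which is 1.23-fold. At an unadjusted p under 0.05, 1 member (*Fosb*) was lower, and DESeq2 and limma-voom also called 0 members lower. The share of members called higher was 33.3%, beside 12.7% of all tested genes called higher, 10.4% called lower and 23.1% called in either direction. With 9 members, that difference rests on very few genes. Groups did not overlap for 5 of the 9 members (55.6%), beside 45.6% of all tested genes, and the median log2 fold change was 0.01 over the members and 0.01 over all tested genes.

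**Figure D1:**
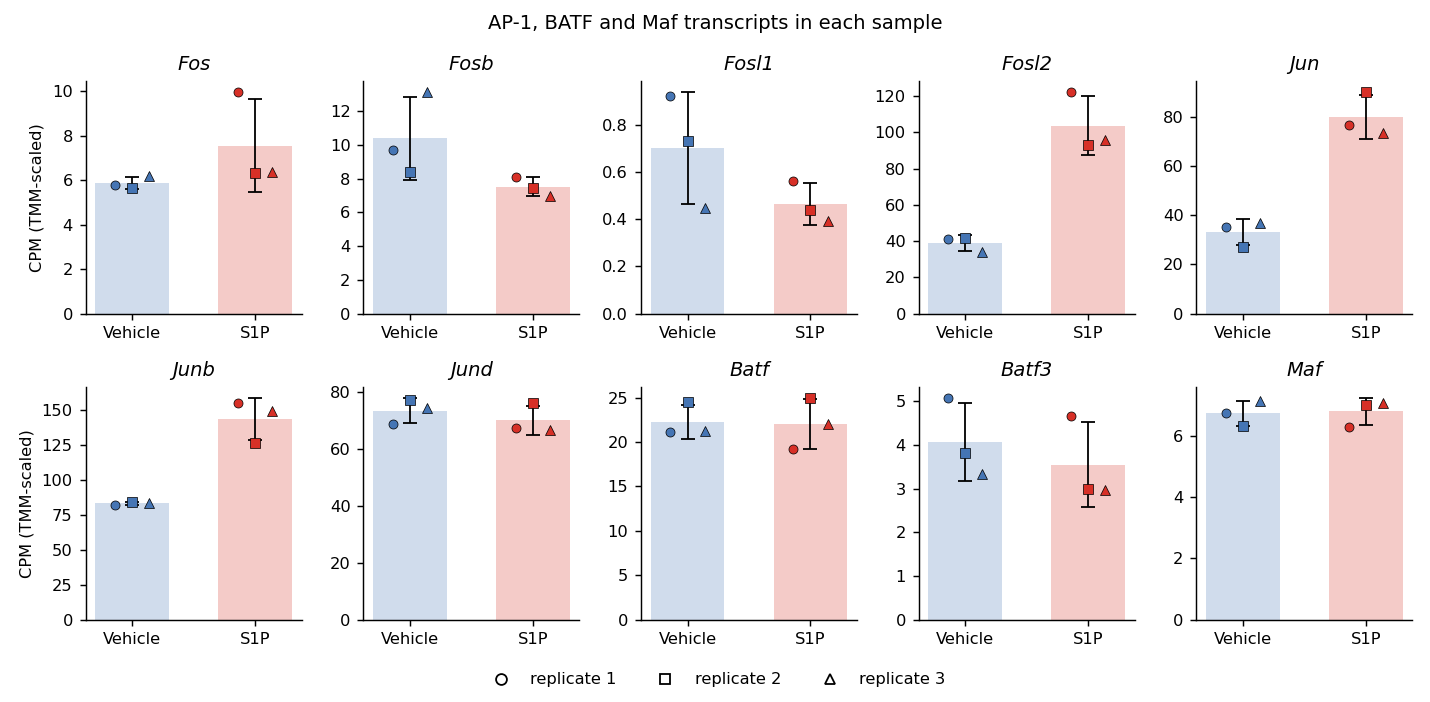
CPM of each of the 10 genes in each sample, with TMM scaling, on axes that start at 0 and differ between panels. Bars are group means, error bars are SD (n = 3) and symbols mark the replicate numbers. *Fosl2*, *Jun* and *Junb* were higher in all 3 S1P samples than in any Vehicle sample, and *Fosl1*, *Jund*, *Batf*, *Batf3* and *Maf* had overlapping groups.

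The DNA just before the start of the 3 genes that rose is shown with that of *Jund*, the JUN gene that was not called, so that the regions can be compared by eye. Each sequence is the 250 bases before the start of the gene's canonical transcript in the GENCODE vM39 annotation of GRCm39, on the gene's own strand, from 5′ to 3′. Capitals mark a CRE-type element, TGACNTCA, the kind of site that JUN and ATF proteins bind.
Jun, chr4:94940460-94940709, minus strand: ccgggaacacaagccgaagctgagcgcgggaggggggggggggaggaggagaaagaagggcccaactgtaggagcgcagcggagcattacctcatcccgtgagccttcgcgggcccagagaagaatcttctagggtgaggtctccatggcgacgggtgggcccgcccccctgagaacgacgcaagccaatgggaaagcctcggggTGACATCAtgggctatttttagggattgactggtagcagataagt
Junb, chr8:85705348-85705597, minus strand: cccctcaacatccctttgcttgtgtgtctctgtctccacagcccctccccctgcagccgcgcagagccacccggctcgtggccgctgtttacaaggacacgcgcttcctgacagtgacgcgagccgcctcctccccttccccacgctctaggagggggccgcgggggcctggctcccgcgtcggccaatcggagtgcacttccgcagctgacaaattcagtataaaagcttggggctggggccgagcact
Fosl2, chr5:32292457-32292706, plus strand: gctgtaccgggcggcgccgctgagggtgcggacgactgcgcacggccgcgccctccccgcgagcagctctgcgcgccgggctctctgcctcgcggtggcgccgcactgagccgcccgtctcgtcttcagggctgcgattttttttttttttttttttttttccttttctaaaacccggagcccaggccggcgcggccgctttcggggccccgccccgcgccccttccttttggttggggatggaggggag
Jund, chr8:71151349-71151598, plus strand: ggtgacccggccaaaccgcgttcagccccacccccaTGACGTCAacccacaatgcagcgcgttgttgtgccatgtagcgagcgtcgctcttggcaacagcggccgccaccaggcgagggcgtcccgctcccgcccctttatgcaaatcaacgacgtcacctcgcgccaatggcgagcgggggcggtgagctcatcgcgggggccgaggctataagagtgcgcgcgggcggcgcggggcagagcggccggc
A CRE-type element stood 45 to 38 bases before the start of *Jun* (TGACATCA) and 214 to 207 bases before that of *Jund* (TGACGTCA), so both a gene that rose and one that was not called carried it. *Maf* had TGACGTCA 38 to 31 bases before its start, which made 3 of the 10 members, against 5.17% of the 13259 tested genes with such a window. The classical AP-1 element TGANTCA, called TRE, was in none of the 10 windows and in 4.80% of all windows. Both strands were searched, and the CRE-type and TRE patterns cannot match the same bases because they differ in spacing. The C/EBP-ATF composite TGATGNAA (2.38% of all windows) and the CArG box bound by SRF (1.13%) had no match among the members. A window of 250 bases leaves out elements farther from the start. A missing match, such as that of the CArG box in *Fos*, therefore does not mean that the gene lacks the element. The STAT pattern TTCNNNGAA (6.68%) matched only in *Batf3*, as TTCCACGAA 150 to 142 bases before its start. These matches are letters in a window and not measured binding sites. The windows of *Jund* and *Fosl2* held 33 and 32 CG dinucleotides, while *Junb* had 19 and *Jun* 15, beside a median of 12 over all tested genes. In the same order their GC content was 69.6%, 67.6%, 65.6% and 61.2%, beside a median of 55.6%.

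*Jun* encodes c-Jun, a strong transcriptional activator, and is a gene of a single exon on chromosome 4 (94937271 to 94940459, minus strand). Vehicle samples held 35.4, 27.1 and 36.9 CPM and S1P samples 76.8, 90.1 and 73.4 CPM. Every S1P sample was above every Vehicle sample, and the lowest S1P value was about 2 times the highest Vehicle value. The log2 fold change was 1.27 ± 0.12 (SE, n = 3 against 3), with an adjusted p of 4.04e-05 in edgeR, and without S1P replicate 2 it was 1.18. The antisense gene *Junos* covers 16.6% of the exon bases of *Jun* and had 5 to 14 counts per library, against 370 to 1364 for *Jun*.

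*Junb* encodes JunB, which pairs with BATF and FOS proteins in activated T cells, and its canonical transcript has a single exon (chromosome 8, gene from 85701113 to 85705359, minus strand). Its levels were 82.0, 84.4 and 83.4 CPM in Vehicle samples and 155, 127 and 149 CPM in S1P samples. The Vehicle values lay within 3 CPM of each other, far below the lowest S1P value. The log2 fold change was 0.79 ± 0.08 with an adjusted p of 7.64e-05 in edgeR, and 0.87 without S1P replicate 2, the S1P sample with the lowest *Junb*. Opposite-strand genes, among them *Prdx2* with 586 to 1066 counts, cover 13.4% of its exon bases, and the strand setting of the counting is not given in the sources used here.

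*Jund* encodes JunD, the JUN protein present already in resting cells (chromosome 8, 71151599 to 71153265, plus strand, 1 exon). It was measured at 68.6, 77.1 and 74.4 CPM in Vehicle samples and at 67.2, 75.9 and 66.7 CPM in S1P samples. The groups overlapped. The log2 fold change was -0.07 ± 0.08 (adjusted p = 0.535, edgeR), with a 95% interval from -0.24 to 0.10 that leaves out changes as large as that of *Junb*, and its sign turned to 0.02 with an offset for GC content. An antisense gene covers 52.6% of its exon bases and had 0 counts in all 6 libraries.

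*Fosl2* encodes FRA-2, a FOS protein without the strong activation domain of c-Fos (chromosome 5, 32292707 to 32315186, plus strand). It had 40.9, 42.0 and 33.9 CPM in Vehicle samples and 122, 93.2 and 95.8 CPM in S1P samples. All S1P values were more than 2 times every Vehicle value. With a log2 fold change of 1.42 ± 0.11 (adjusted p = 2.10e-05, edgeR; 1.49 without S1P replicate 2) it ranked at 174 of the 13299 tested genes, *Jun* at 231 and *Junb* at 729, counted from the largest rise. The counts behind these values were 528 to 710 in Vehicle and 1062 to 2170 in S1P libraries.

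*Fos* encodes c-Fos, the immediate early partner of c-Jun (chromosome 12, 85520658 to 85524047, plus strand). At 3 days of culture its level was low, with 5.77, 5.65 and 6.17 CPM in Vehicle samples and 9.96, 6.32 and 6.36 CPM in S1P samples, or 72 to 177 counts. The groups did not overlap, but S1P replicate 1 alone was far above the Vehicle range. The log2 fold change of 0.39 ± 0.19 did not pass the test (adjusted p = 0.147, edgeR; 95% interval from -0.03 to 0.80). It was 0.11 without S1P replicate 1, the library that carried most of the difference.

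*Fosb*, another immediate early FOS gene (chromosome 7, 19036621 to 19043976, minus strand), lay on the other side of 0. Vehicle samples had 9.69, 8.36 and 13.1 CPM and S1P samples 8.10, 7.46 and 6.99 CPM, so that all S1P values were below all Vehicle values by a narrow gap. The log2 fold change was -0.46 ± 0.17 with an adjusted p of 0.0613 in edgeR and a 95% interval from -0.84 to -0.09. Vehicle replicate 3 was the highest, and without it the value was -0.26 (adjusted p = 0.270), whereas without Vehicle replicate 2 it was -0.60 and passed (adjusted p = 0.0341). *Fosl1*, which encodes FRA-1 (chromosome 19, 5497575 to 5505974, plus strand), had 16, 10 and 7 counts in Vehicle and 10, 5 and 5 counts in S1P libraries, too few for the filter, and opposite-strand genes cover 69.1% of its exon bases. In the 6 other settings that fitted it, its log2 fold change ran from -0.81 to -0.47 and it was not called (adjusted p from 0.223 to 0.528 in edgeR, none given by DESeq2).

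*Batf* encodes the BATF protein, which lacks an activation domain and works with JUN proteins and IRF4 in effector CD8⁺ T cells (chromosome 12, 85733423 to 85755861, plus strand). Vehicle samples had 21.1, 24.5 and 21.3 CPM and S1P samples 19.2, 24.9 and 22.0 CPM, and the groups overlapped over most of their range. The log2 fold change was -0.02 ± 0.11 (adjusted p = 0.905, edgeR; 95% interval from -0.27 to 0.22) and changed sign with the scaling, to 0.0014 with upper-quartile factors. *Batf3*, known for its part in dendritic cell development (chromosome 1, 190830044 to 190841142, plus strand), had 5.07, 3.81 and 3.34 CPM in Vehicle and 4.67, 2.98 and 2.98 CPM in S1P samples. In both groups replicate 1 was the highest, and the log2 fold change of -0.18 ± 0.24 (adjusted p = 0.613, edgeR) had a wide 95% interval from -0.70 to 0.34, on 34 to 88 counts per library. An opposite-strand gene, *Gm70128*, which is not in the count table, covers 29.4% of the exon bases of *Batf3*.

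*Maf* encodes c-MAF (chromosome 8, 116409632 to 116434579, minus strand). It had 6.75, 6.31 and 7.14 CPM in Vehicle and 6.30, 7.02 and 7.07 CPM in S1P samples. The ranges nearly coincided, and the log2 fold change was 0.01 ± 0.14 (adjusted p = 0.978, edgeR; 95% interval from -0.30 to 0.31), a value whose sign changed between scalings, from 0.01 with TMM factors to -0.02 with total counts alone.

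**Figure D2:**
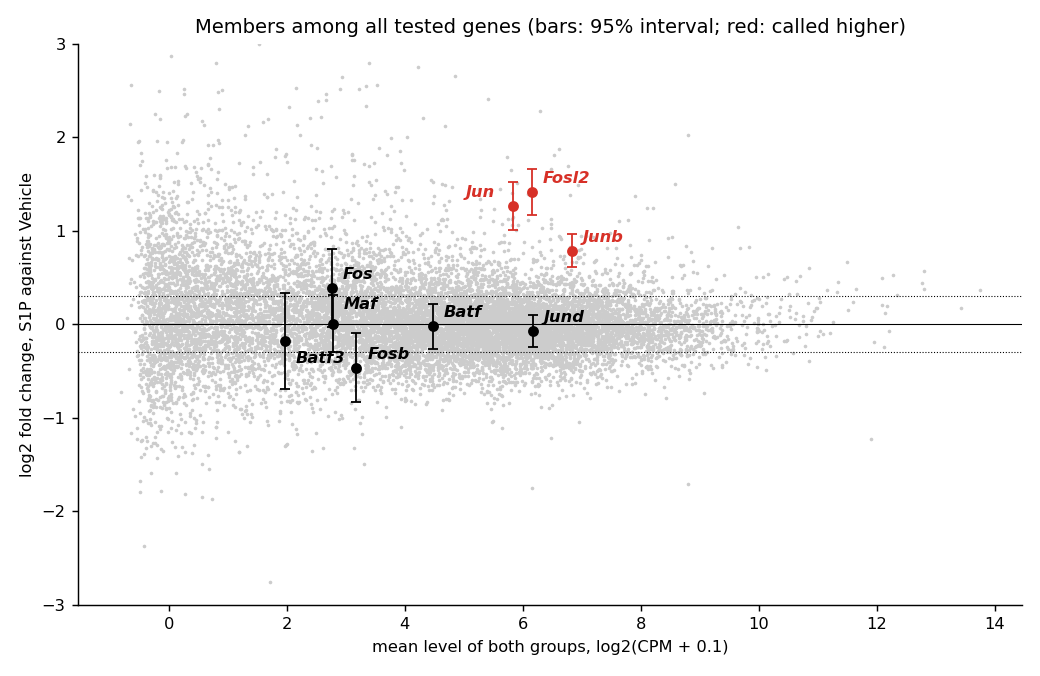
Log2 fold change of S1P against Vehicle on the y axis and mean level of both groups on the x axis, as log2(CPM + 0.1), for all tested genes (grey) and the 9 tested members (large points with 95% intervals). Dotted lines mark a log2 fold change of 0.3 in size, and genes beyond the axis limits are not shown. *Fosl2*, *Jun* and *Junb* sit at log2 fold changes of 1.42, 1.27 and 0.79 among well-expressed genes, and the intervals of the other members, apart from *Fosb*, include 0.

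The 3 genes that rose were among the more abundant members. Their mean CPM over both groups stood at percentile 76.0 (*Fosl2*), 71.2 (*Jun*) and 84.8 (*Junb*) of the tested genes, and that of *Jund* at percentile 76.1. *Batf* stood at percentile 51.3, and *Fosb*, *Maf*, *Fos* and *Batf3* lower, from percentile 35.8 down to 24.7. The standard errors were smaller for the more abundant members, from 0.08 to 0.12 in log2 units for *Jund*, *Junb*, *Batf*, *Fosl2* and *Jun* and from 0.14 to 0.24 for *Maf*, *Fosb*, *Fos* and *Batf3*, so smaller changes were within reach only for the former.

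To compare levels between genes, CPM values were divided by the length of each gene's merged exons in kilobases, giving RPKM. In Vehicle samples the order ran from *Jund* (44.0 RPKM) and *Junb* (35.0 RPKM) through *Batf* (15.6 RPKM), *Jun* (10.4 RPKM) and *Fosl2* (3.75 RPKM) to *Batf3* (2.55 RPKM), *Fos* (2.49 RPKM), *Fosb* (1.66 RPKM), *Maf* (0.726 RPKM) and *Fosl1* (0.345 RPKM). After S1P *Junb* (60.3 RPKM) stood above *Jund* (41.9 RPKM), and *Jun* (25.1 RPKM) above *Batf* (15.5 RPKM). *Fosl2* reached 9.97 RPKM, while *Fos* (3.20 RPKM), *Batf3* (2.22 RPKM), *Fosb* (1.204 RPKM), *Maf* (0.733 RPKM) and *Fosl1* (0.229 RPKM) followed. Of the neighbours in these orders, only *Batf3* and *Fos* overlapped in their ranges over samples, and they did so in both groups. The order of *Jund* and *Junb* in Vehicle samples depended on the length used, and it was the reverse with the length of the longest transcript.

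Within the JUN genes, *Jund* made up 47.5%, 51.3% and 48.9% of the summed RPKM in Vehicle samples and 31.1%, 35.9% and 31.8% in S1P samples. *Junb* made up 39.1% ± 0.68 (SD, n = 3) of this sum in Vehicle and 47.3% ± 4.73 in S1P samples, and *Jun* 11.6% ± 1.91 and 19.7% ± 2.20. None of these 3 shares overlapped between the groups. The JUN sum itself was 89.4 ± 2.38 RPKM in Vehicle and 127 ± 1.94 RPKM in S1P samples, 1.43 times as high. The shares are not independent of the changes given above, and they show the change in mixture that those changes amount to.

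Among the FOS genes *Fosl2* held a larger share in every S1P sample than in any Vehicle sample, with 46.9%, 49.6% and 39.8% of the FOS sum in Vehicle samples and 67.0%, 68.7% and 69.7% in S1P samples. The share of *Fos* was 30.2% ± 1.51 in Vehicle and 21.7% ± 2.09 in S1P samples, that of *Fosb* 20.2% ± 4.80 and 8.34% ± 0.88, and that of *Fosl1* 4.18% ± 1.37 and 1.56% ± 0.10. The groups did not overlap in any of these shares, although *Fos* was not lower in CPM and *Fosl1*, with 5 to 16 counts per library, overlapped in CPM (0.45 to 0.92 in Vehicle and 0.39 to 0.56 in S1P samples). Each share is taken of a sum in which *Fosl2* is the largest term. The FOS sum was 8.24 ± 0.13 RPKM in Vehicle and 14.6 ± 2.54 RPKM in S1P samples, 1.77 times as high, and thus remained far below the JUN sum in both groups.

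The shares of the BATF genes overlapped between the groups. *Batf* held 82.3% to 87.8% of their sum in Vehicle and 82.2% to 90.3% in S1P samples, and the sum was 18.2 ± 1.29 and 17.7 ± 1.504 RPKM. The log2 ratio of *Batf* to *Jund* CPM was -1.72 ± 0.08 in Vehicle and -1.67 ± 0.12 in S1P samples, with overlapping ranges. That of *Jun* to *Jund* was -1.16 ± 0.30 and 0.19 ± 0.05, and that of *Fosl2* to *Batf* was 0.80 ± 0.14 and 2.23 ± 0.39, with ranges far apart. Ratios within a sample do not depend on how libraries are scaled.

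**Figure D3:**
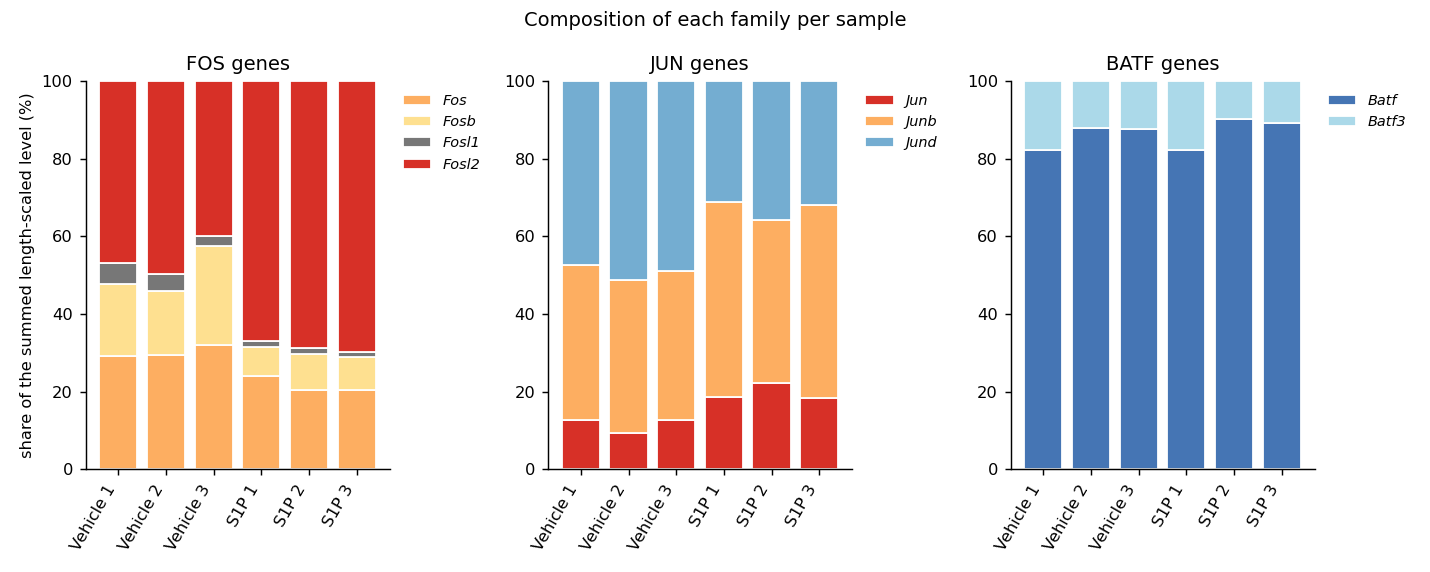
Share of each gene in the summed RPKM of its family, in percent, for each of the 6 samples. Within the FOS genes *Fosl2* held 39.8% to 49.6% in Vehicle and 67.0% to 69.7% in S1P samples, within the JUN genes *Jund* held 47.5% to 51.3% and 31.1% to 35.9%, and the shares of the BATF genes overlapped.

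Other bZIP genes of the AP-1 family, from a list written from general knowledge, included several that rose as well. Of 12 tested, 4 were called higher, 1 lower and 7 were not called, with a median log2 fold change of 0.20 against 0.01 over all tested genes. Among all tested genes 12.7% were called higher and 10.4% lower. *Atf3*, a stress-induced factor that pairs with JUN proteins, had 29.3, 27.3 and 24.4 CPM in Vehicle and 94.3, 81.7 and 77.5 CPM in S1P samples, a log2 fold change of 1.65 ± 0.10 (adjusted p = 6.42e-06, edgeR). That is a larger change than any of the 9 tested members showed. *Crem*, a cyclic AMP responsive factor, rose by 1.15 ± 0.07 (adjusted p = 1.10e-05, edgeR). *Ddit3*, which encodes the stress factor CHOP, rose by 0.98 ± 0.13 (adjusted p = 3.37e-04, edgeR) and *Atf5* by 0.71 ± 0.15 (adjusted p = 0.00515, edgeR), all on the log2 scale. *Batf2*, the remaining BATF gene, was at 0.09 to 0.68 CPM and was not tested.

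Among MAF and CNC bZIP genes, relatives of c-MAF that include the small MAF proteins, 2 of 7 tested were called higher and 0 lower in edgeR. The shares over all tested genes were 12.7% and 10.4%, and the median of the list was -0.07. At an unadjusted p under 0.05, 1 (*Mafk*, at -0.29) was lower, and DESeq2 called 1 gene of this list lower and limma-voom 0. The count called higher was 1 without S1P replicate 1, and that called lower was 1 without S1P replicate 2. *Maff*, a small MAF without an activation domain, was at 2.88, 3.59 and 4.12 CPM in Vehicle and 8.67, 8.51 and 7.07 CPM in S1P samples, a log2 fold change of 1.20 ± 0.18 (adjusted p = 6.12e-04, edgeR). *Nfe2l1*, a regulator of proteasome genes, rose by 0.34 ± 0.07 (adjusted p = 0.00357, edgeR).

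The partners that bind DNA beside AP-1 or BATF had 1 gene called higher and 0 lower. Over all tested genes 12.7% were called higher, 10.4% lower and 23.1% in either direction. Of 9 tested, *Runx3* alone, a RUNX factor of the CD8 lineage, was called, at a log2 fold change of 0.54 ± 0.09 (adjusted p = 0.00180, edgeR), and the median was 0.18. The count called was 2 with upper-quartile factors, a mean of at least 50 counts or a GC offset (with or without the replicate block), and without Vehicle replicate 1 or S1P replicate 2. It was 3 with no fold threshold and 0 with a log2 fold threshold of 1. *Irf4*, the partner of BATF and named here because it sits closest to the members, had 699, 638 and 670 CPM in Vehicle and 849, 772 and 803 CPM in S1P samples. Its groups did not overlap and its adjusted p was 0.0156 in edgeR, but its log2 fold change of 0.27 was under the threshold of 0.3. It passed without Vehicle replicate 1 (0.3021, adjusted p = 0.0419, edgeR) and without S1P replicate 2 (0.3051, adjusted p = 0.00176, edgeR). The NFAT gene *Nfatc1* was at -0.05 ± 0.06 (adjusted p = 0.583, edgeR).

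Of 11 tested factors known to switch on *Fos* or *Jun* transcription, 1 was called higher and 1 lower, beside 12.7% and 10.4% of all tested genes. Their median was 0.08. *Stat3* rose by 0.51 ± 0.09 (adjusted p = 0.00134, edgeR), from 279 to 323 CPM in Vehicle to 400 to 480 CPM in S1P samples. *Srf*, the factor that binds the CArG box of *Fos*, was lower, with a log2 fold change of -0.44 ± 0.08 (adjusted p = 0.00162, edgeR).

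Kinases that act on FOS and JUN proteins had 3 of 14 tested called higher and 2 lower, with a median of -0.01. The shares over all tested genes were 12.7% and 10.4%. *Map2k6*, a kinase upstream of p38, rose by 0.67 ± 0.15 (adjusted p = 0.00666, edgeR) and *Mapk3*, which encodes ERK1, by 0.49 ± 0.09 (adjusted p = 0.00172, edgeR). *Map2k2*, a kinase upstream of ERK, was lower at -0.42 ± 0.11 (adjusted p = 0.0124, edgeR), and *Map2k3*, upstream of p38, at -0.39 ± 0.12 (adjusted p = 0.0282, edgeR). By qPCR the paper reported *Map2k3*, *Map2k4* and *Map2k6* as higher after S1P. The direction of *Map2k3* thus differed here, and *Map2k4* was not called (log2 fold change 0.02 ± 0.07). The number of these kinases called lower depended on single libraries, and went from 0 without Vehicle replicate 1 to 4 without S1P replicate 1, and was 1 without Vehicle replicate 3 or S1P replicate 2. Transcripts of the kinases say nothing of their activity. None of 7 tested genes for the ubiquitin ligases that mark JUN and FOS proteins for degradation was called in edgeR, DESeq2 or limma-voom. In edgeR 23.1% of all tested genes were called in either direction. At an unadjusted p under 0.05 there was 1, *Ubr1*, with a log2 fold change of -0.19 (adjusted p = 0.0392, edgeR), short of the fold threshold.

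Immediate early genes that are induced together with *Fos* and *Jun* did not move as a block. Of 16 tested, 5 were called higher, 2 lower and 9 were not called, with a median of 0.19. Among all tested genes 12.7% were called higher and 10.4% lower. *Ier3*, a survival gene, rose from 2.83, 3.81 and 2.70 CPM in Vehicle to 9.68, 11.6 and 8.95 CPM in S1P samples (log2 fold change 1.70 ± 0.18, adjusted p = 8.70e-05, edgeR). *Btg2*, an antiproliferative gene, rose by 0.56 ± 0.08 (adjusted p = 4.91e-04, edgeR) and *Klf6*, a zinc finger factor, by 0.50 ± 0.07 (adjusted p = 4.25e-04, edgeR), whereas *Dusp2*, a phosphatase of MAP kinases, was lower at -0.52 ± 0.12 (adjusted p = 0.00679, edgeR). The count called lower was 1 instead of 2 without Vehicle replicate 1, Vehicle replicate 3, S1P replicate 2 or S1P replicate 3.

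Genes known as AP-1 targets in T cells went in both directions. Of 15 tested, 3 were called higher and 5 lower, beside 12.7% and 10.4% of all tested genes. Their median was -0.10, with 7 of the 15 above 0. The chemokine genes *Xcl1* and *Ccl3* were lower, *Xcl1* going from 100, 109 and 121 CPM to 23.4, 42.5 and 32.9 CPM (log2 fold change -1.76 ± 0.16, adjusted p = 4.24e-05, edgeR) and *Ccl3* changing by -1.21 ± 0.10 (adjusted p = 2.10e-05, edgeR). *Vim*, the intermediate filament gene, rose from 179, 178 and 170 CPM to 441, 395 and 416 CPM (1.25 ± 0.07, adjusted p = 4.37e-06, edgeR). The cytokine gene *Il3* rose by 1.18 ± 0.31 (adjusted p = 0.0142, edgeR) from a level of under 1 CPM. Without S1P replicate 1 the number of these targets called higher was 5.

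Of 15 tested genes known as targets of BATF or c-MAF, 4 were called higher and 2 lower, beside 12.7% and 10.4% of all tested genes. Their median was 0.31. *Batf* and *Maf* were not called themselves, and a link between them and these genes was not tested. *Rora*, a nuclear receptor, had 9.34, 11.96 and 7.39 CPM in Vehicle and 46.8, 41.6 and 36.0 CPM in S1P samples, a log2 fold change of 2.13 ± 0.15 (adjusted p = 1.27e-05, edgeR). Among the inhibitory receptors *Ctla4* rose by 0.94 ± 0.14 (adjusted p = 8.26e-04, edgeR), while *Pdcd1*, which encodes PD-1, was lower at -0.74 ± 0.09 (adjusted p = 2.06e-04, edgeR). The chemokine receptor gene *Ccr6* was lower at -1.04 ± 0.25 (adjusted p = 0.00972, edgeR).

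**Figure D4:**
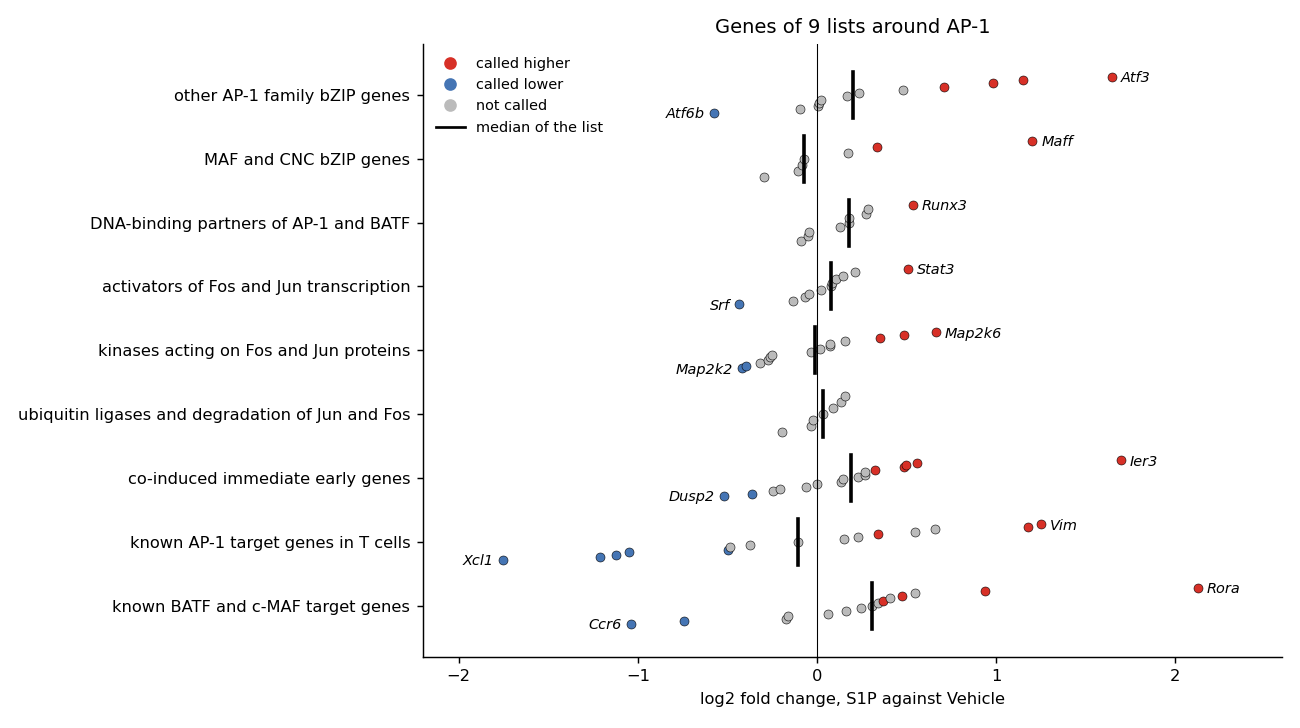
Log2 fold change of S1P against Vehicle for each tested gene of 9 lists of genes around AP-1, with red for genes called higher, blue for genes called lower, grey for genes not called and a vertical bar for the median of each list. Medians lie between -0.10 and 0.31, and *Rora* (2.13), *Ier3* (1.70), *Atf3* (1.65) and *Xcl1* (-1.76) lie farthest out.

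The calls of *Fosl2*, *Jun* and *Junb* held under other tools, scalings and filters. Over 21 other settings the log2 fold change of *Fosl2* ran from 1.28 to 1.49 and that of *Jun* from 1.14 to 1.35, both called in all 21. *Junb* ran from 0.73 to 0.87 and was called in 20 of 21, the exception being a threshold of 1 on the log2 fold change. *Fos* was called in none of the 21 (0.11 to 0.50), and *Fosb* was called lower in 2 of them (-0.60 to -0.26), without a filter on low counts and without Vehicle replicate 2.

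**Figure D5:**
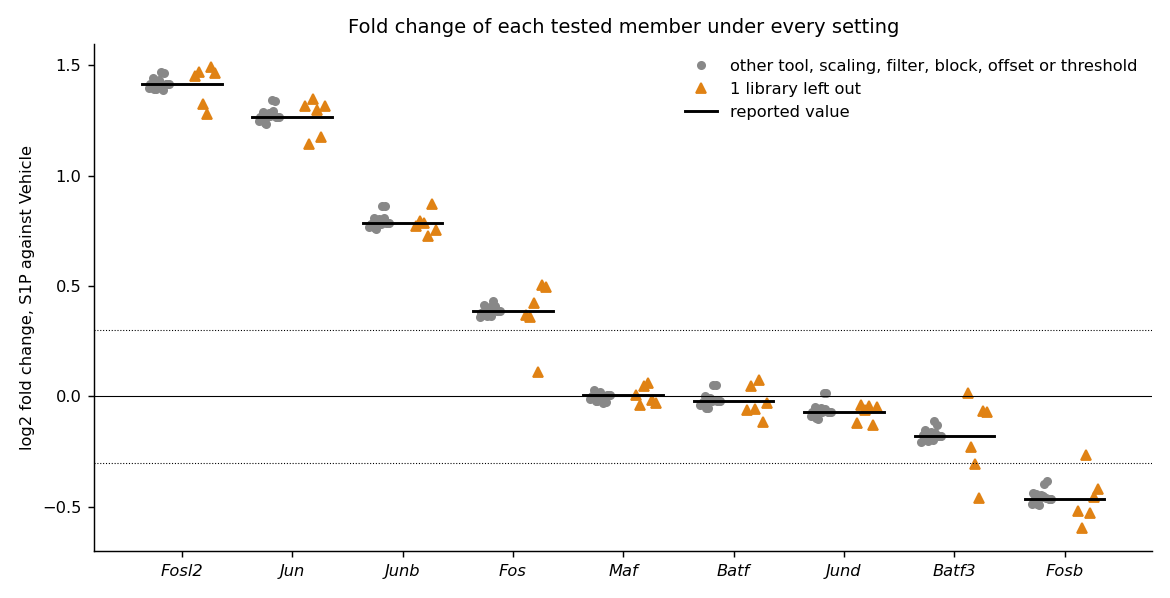
Log2 fold change of each tested member as reported (black line), under other tools, scalings, filters, offsets and thresholds (grey) and with 1 library left out (orange), with dotted lines at 0.3 and -0.3. *Fosl2*, *Jun* and *Junb* stay above 0.7 throughout, while leaving out single libraries spreads *Fos* from 0.11 to 0.50 and *Batf3* from -0.46 to 0.02.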

How the data were processed

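RNA was measured in 3 Vehicle and 3 S1P samples of mouse splenic CD8⁺ T cells, grouped by their labels. The authors made strand-specific poly(A) libraries, trimmed reads with Trim Galore, aligned them to GRCm39 with STAR and obtained gene counts from featureCounts, as the submitters' processing notes and the labels state. Versions, annotation release and strand setting are not given in the sources used here. The deposited values are whole-number counts without normalization, and the authors' own tests used DESeq2.

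Counts of 56941 Ensembl identifiers, of which 56323 are in GENCODE vM39, were filtered with filterByExpr to 13299, scaled with TMM factors and tested with edgeR 4.0.16 (limma 3.58.1, R 4.3.3), S1P against Vehicle, with no covariate. Total counts ran from 12048880 to 17384084, so genes near 5 CPM rest on under 100 counts in most libraries. The SE of a log2 fold change is its size divided by the square root of the F statistic. The steps were tested on simulated data. No pair of replicates agreed within sampling noise, so each library was counted once. Since nothing says how the cultures were separated, p-values measure the spread between these samples only. An exact permutation test of 3 against 3 cannot go below 0.1 and was not used.

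The members and lists were chosen with earlier results of these data known. All 10 members are named, and of each list at most 4 called genes with the largest log2 fold changes, apart from genes said to be named otherwise. *Clec9a*, *Pecam1*, *Cd3d*, *Cd3e*, *Cd3g*, *Trac*, *Cd4*, *Cd8a*, *Cd8b1*, *Ms4a1*, *Cd22*, *Ighm*, *Pax5*, *Zbtb7b*, *Cd40lg*, *Batf2*, *Nfatc1*, *Mafk*, *Map2k4* and *Ubr1* were named after their values were seen, and antisense partners because they overlap a member. Alternatives were DESeq2 1.42.0, limma-voom, other scalings, filters and thresholds, offsets for GC content or length, a replicate block, and each library left out in turn.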

Additional observations from a re-analysis of the deposited data

How the results depend on the processing

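The called members kept their calls as given in the report, and the signs of members near 0 did not hold. *Maf* moved from 0.0062 to -0.0112 with DESeq2, -0.0199 with total counts only, -0.0227 with no filter, -0.0281 with a GC offset, -0.0134 with a length offset and -0.0268 with a replicate block and GC offset, and lay between -0.0396 and 0.0628 with 1 library left out. *Batf* moved to 0.0014 with upper-quartile factors, 0.0516 with a GC offset and 0.0496 with the block and GC offset (-0.1147 to 0.0734 with 1 library left out), and *Jund* to 0.0165 and 0.0142 with the same 2 offsets. *Batf3* lay between -0.4593 and 0.016 with 1 library left out. The cause was not tested. The number of members called lower was 1 with no filter on low counts, and 0 to 1 with 1 library left out.

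With a log2 fold change of at least 1, 465 genes were called (383 higher, 82 lower), and 12 of the listed genes. At an adjusted p of at most 0.01, 1857 were called (1031 higher, 826 lower). Without division by length *Fosl2* made up 69.55% (Vehicle) and 86.99% (S1P) of the FOS sum. The shares of *Fos* were then 10.51% and 6.26%, of *Fosb* 18.69% and 6.36% and of *Fosl1* 1.25% and 0.39%. Of the JUN sum *Jun* made up 17.46% and 27.3% and *Jund* 38.65% and 23.83%. With the longest transcript's length *Jund* made up 43.8% and 28.69%, and in S1P samples *Fosl2* 72.01% and *Jun* 17.18%, because these lengths weight the genes differently. The median over all genes was 0.01 as reported, 0.18 with DESeq2 and 0.16 with no filter, where more low genes enter.

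With the replicate block 3120 genes were called against 3071. Same-numbered samples deviated together with correlations of 0.15, -0.01 and 0.06, and the samples numbered 2 did not correlate best with each other, so the numbers were not taken to pair the samples. The block changed no member's call. *Fosl1* had 5 to 16 counts per library and *Batf3* 34 to 88. Whether depth or the spread between samples limited their estimates was not tested.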
